A study of Mus musculus with 1115 samples.

Results

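The cells described here are the cortical neurons that the authors placed in their cluster 5 and labelled as excitatory neurons. They make up 10.3% of the 1115 single cells in the series and number 3, 14, 41 and 57 on its 4 main sort days. They were taken by those 2 labels in the deposited cell table, and no threshold on a gene was used. Excitatory neurons make up 25.8% of all cells, of which 39.9% are in cluster 5, 53.8% in cluster 2 and the remaining 18 cells in cluster 6. The neurons of cluster 2 (1, 4, 70 and 80 on the same days) are the reference throughout. Another 2 cells of cluster 5 and 14 cells of cluster 2 carried a different class label and were not used.

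The tissue was the cerebral cortex of C57BL/6 mice taken as embryos of day 13.5, after a plasmid with 2 promoters had been electroporated in utero. Red mRFP was under the broadly active CAG promoter, and GFP was under the promoter of Hes5, a Notch target gene of radial glia. Cells were sorted singly as red only (CAG_mRFP) or as red and green (Hes5_GFP), so every cell compared here had taken up the plasmid and no unelectroporated control cells were used. Of the cluster 5 neurons 8 were Hes5_GFP, and of the cluster 2 neurons 27, and the rest were CAG_mRFP. The RNA of each cell was read with a modified Smart-seq2 protocol, which has no molecular identifiers. The labels name no individual embryos, so the sort day is the unit over which levels were compared.

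Newborn excitatory neurons of the cortex leave the ventricular surface, pass through the intermediate zone and settle in the cortical plate while they extend an axon. The first-born neurons form the deep layers, whose axons leave the cortex, and later-born ones form the upper layers, whose axons mostly stay within it. Factors such as Fezf2 and Bcl11b are known for subcerebral projection neurons and Tbr1 for corticothalamic neurons. Axon growth draws on microtubule and membrane proteins such as Stmn2 and Gap43, and excitability on ion channels, pumps and the vesicle release machinery.

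Only days 3 and 4 held at least 5 cells of each cluster, and the comparison rests on those 2 days. On them, 4 plates of CAG_mRFP cells held both clusters: L1A and L3B of day 3, and L1D and L2C of day 4. A cluster 5 neuron had a median of 295657 counts (range 6930 to 1952854) and 2731 detected genes, and a cluster 2 neuron 219240 counts (841 to 999243) and 2554 genes. The order of depth turned between the days: the medians were 110757 against 160528 on day 3 and 314718 against 255501 on day 4. Plate L1A was the shallowest, with medians of 38253 and 30607. The median mitochondrial share was 1.57% in cluster 5 and 1.68% in cluster 2, and 98.3% and 97.4% of the cells were assigned to G1 by the authors.

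Levels below are CPM, the summed counts of a cluster on a day scaled to a total of 1000000 counts, given as the mean of days 3 and 4 unless a day is named. A log2 ratio is cluster 5 over cluster 2 with 1 CPM added to each side, averaged over the 2 days. A gene is called higher or lower where that mean is at least 1 in size and has one sign on both days. The authors made the clusters from the expression of these same cells, so a difference between clusters 5 and 2 is a description, and no p-value is given for any gene. Of the 10022 genes with at least 5 CPM in either cluster, 875 were higher in cluster 5 (8.73%) and 1326 lower (13.2%). The median log2 ratio of all measured genes was -0.08. Many calls rest on few cells: 30.1% of the higher and 32.4% of the lower genes had the same sign on all 4 plates. With at least 20 CPM and reads in 25% of the cells of the higher cluster, 3949 genes remained, of which 3.82% were higher and 4.53% lower.

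Each of the 5 markers given for this cluster had a higher mean level in it than in any of the other 7 author clusters, and cluster 2 came second for each. Stmn2, a stathmin that destabilises microtubules in growing axons, stood at 86.02, 488.7 and 287.9 CPM in cluster 5 on days 2, 3 and 4, and at 55.7 and 71.6 CPM in cluster 2 on days 3 and 4. Its log2 ratio was 2.55 (3.11 and 1.99 on the 2 days), and it was positive on 4 of 4 plates. The 5 Hes5_GFP cells of day 3 together held 1621 CPM of Stmn2 against 258.4 in the 36 CAG_mRFP cells of that day, and with CAG_mRFP cells alone the log2 ratio was 1.85. Among the other markers, Myt1l, a zinc finger factor that represses non-neuronal genes, had 337.2, 292.1 and 248.5 CPM in cluster 5 on days 2 to 4 and 107.7 and 50.8 CPM in cluster 2 on days 3 and 4. Its log2 ratio of 1.85 (1.43 and 2.27) was positive on 4 plates.

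Rbfox1, a neuronal splicing regulator, had 147.8, 145.96 and 112.4 CPM in cluster 5 on days 2, 3 and 4 and 26.1 and 58.4 CPM in cluster 2 on days 3 and 4, a log2 ratio of 1.69 (2.44 and 0.93). Cntn2, the axonal adhesion molecule also called TAG-1, had 926, 230 and 97.2 CPM in cluster 5 on the same days and 45.9 and 49.2 CPM in cluster 2, a log2 ratio of 1.63 (2.30 and 0.97). Both were positive on 4 plates, although Cntn2 on plate L1D was level at 0.003. Wnt7b, a secreted Wnt ligand, had 664.9, 334.4 and 125.5 CPM in cluster 5 and 89.7 and 72.6 CPM in cluster 2, a log2 ratio of 1.33 (1.89 and 0.78). Its ratio was positive on plates L1D (2.34) and L3B (1.93) and slightly negative on L1A (-0.13) and L2C (-0.17). The share of cells with a Wnt7b read was nevertheless larger in cluster 5 on each of the 4 plates, for example 46.2% against 12.9% on plate L2C, so summed level and share of cells went apart there. The 5 markers were given for this cluster, so their higher levels in it describe the cluster and are no separate support for it.

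**Figure D1:**
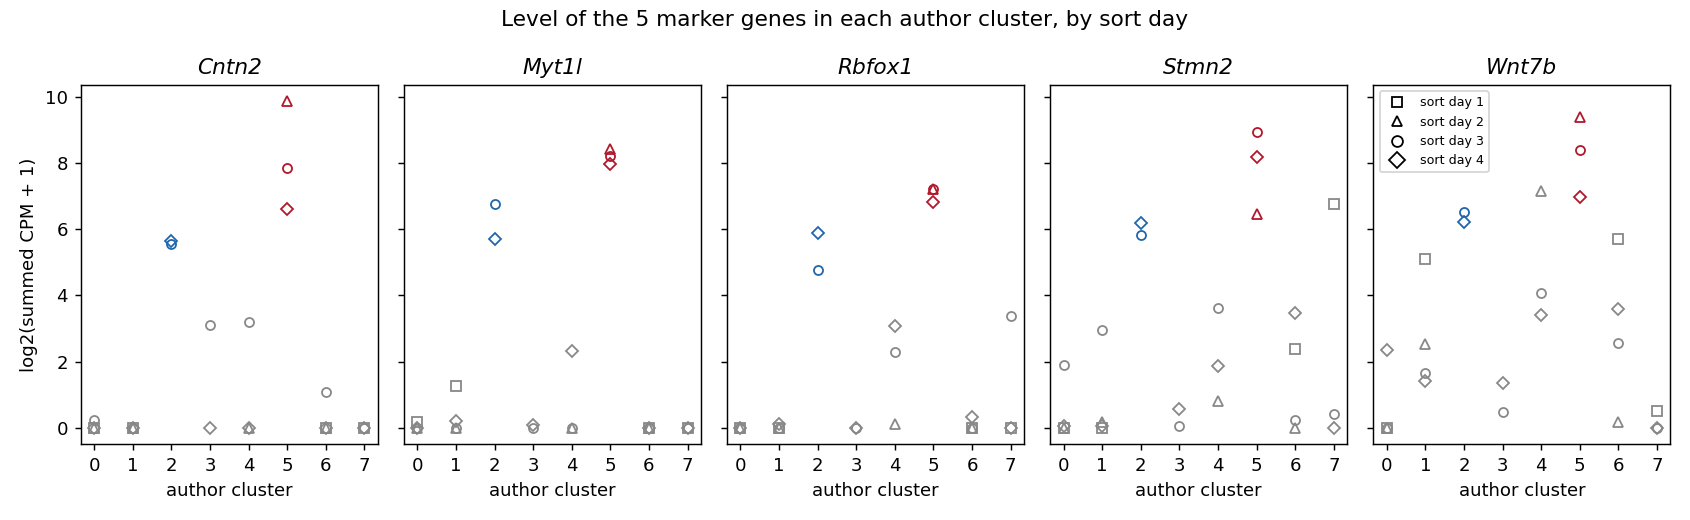
Level of each marker gene in the 8 author clusters, as log2 of summed CPM plus 1, with a symbol for each sort day that held at least 5 cells of the cluster's main class. Cluster 5 (red) holds the highest symbol for each marker and cluster 2 is in blue. The day 1 symbol of cluster 7 for Stmn2 and the day 2 symbol of cluster 4 for Wnt7b lie above the lowest cluster 5 day.

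Outside the neuron clusters the markers were close to absent, with exceptions on single days. Mean levels in the radial glia of clusters 0, 1 and 3 lay between 0 and 3.82 CPM for Cntn2, Myt1l, Rbfox1 and Stmn2. Wnt7b reached 141.7 CPM on day 2 in the progenitors of cluster 4, and Stmn2 107.1 CPM on day 1 in cluster 7. In single cells the markers were patchy, and no marker was read in every neuron of the cluster. Shares of cluster 5 neurons with a read ran from 46.1% for Rbfox1 to 64.3% for Myt1l, against 16.8% for Wnt7b to 28.4% for Myt1l in cluster 2. With every cell thinned to 50000 counts, which kept 86.96% and 84.5% of the neurons and 93.2% of the radial glia, the Stmn2 shares were 58% and 17.6%, against 0.787% in radial glia. At that depth 63% of cluster 5 neurons and 6.11% of cluster 2 neurons had reads of at least 3 markers (61.7% and 8.39% unthinned).

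**Figure D2:**
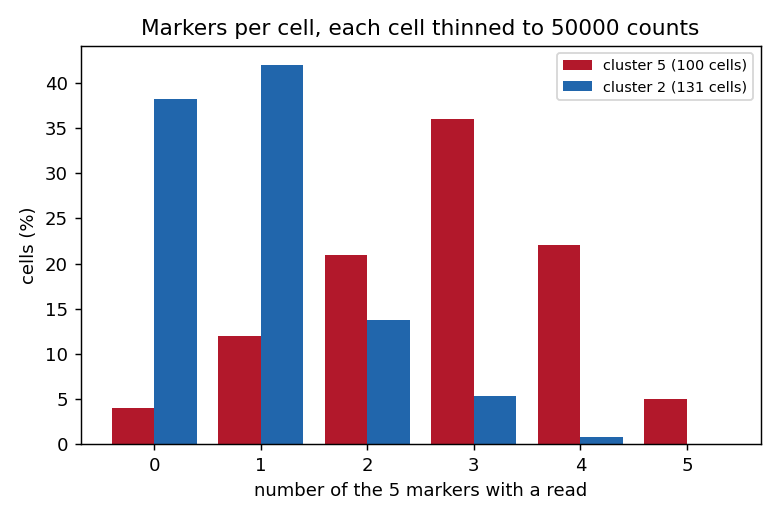
Share of neurons (%) by how many of the 5 markers had a read, after thinning to 50000 counts, in cluster 5 (red) and cluster 2 (blue). Cluster 5 peaks at 3 markers (36%), cluster 2 at 1 (42%), and 38.2% of cluster 2 neurons had none.

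Within cluster 5, 71 neurons had reads of 3 to 5 markers and 44 of fewer, and depth differed between these cells, with medians of 329431 and 129138 counts. Gap43 was read in 59.2% and 43.2% of them, and Fezf2 in 49.3% and 36.4%. Ccnd2 was read in 64.8% and 59.1%, and Eomes in 11.3% and 15.9%. The part of depth in these shares was not tested.

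The markers are protein-coding genes. In GENCODE vM21 on GRCm38 they lie at chr1:132509427-132543256 (Cntn2, minus strand), chr12:29528384-29923213 (Myt1l, plus), chr16:5885355-7411526 (Rbfox1, plus), chr3:8509360-8561606 (Stmn2, plus) and chr15:85535437-85582473 (Wnt7b, minus). RefSeq promoter windows on GRCm38.p6 were at hand for 3 of the 5. The E-box CAGATG, a hexamer bound by proneural and Neurod factors, was searched on both strands (CATCTG on the other) in the 250 bases before each start. It was found in 14.4% of all 32851 windows. Of the 5 Myt1l windows 3 hold the motif, while the Cntn2 window and both Rbfox1 windows do not. The stretches below, plus strand with the motif in capitals, show this difference between a pair of markers that were both higher in cluster 5. They were chosen because they lie outside the annotated exons of their gene. The data do not tell which start was used.
Myt1l, first start (chr12:29528134-29528383): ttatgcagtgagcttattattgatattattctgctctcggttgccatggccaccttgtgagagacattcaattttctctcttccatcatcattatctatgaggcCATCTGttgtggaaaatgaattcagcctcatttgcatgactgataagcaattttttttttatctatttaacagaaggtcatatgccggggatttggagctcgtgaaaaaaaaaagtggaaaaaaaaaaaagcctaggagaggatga
Myt1l, second start (chr12:29533135-29533384): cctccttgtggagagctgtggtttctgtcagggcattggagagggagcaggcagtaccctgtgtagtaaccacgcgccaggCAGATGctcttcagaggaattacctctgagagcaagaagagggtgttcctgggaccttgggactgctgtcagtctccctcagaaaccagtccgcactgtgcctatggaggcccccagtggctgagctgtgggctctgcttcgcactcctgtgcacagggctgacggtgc
Rbfox1, first start (chr16:5884543-5884792): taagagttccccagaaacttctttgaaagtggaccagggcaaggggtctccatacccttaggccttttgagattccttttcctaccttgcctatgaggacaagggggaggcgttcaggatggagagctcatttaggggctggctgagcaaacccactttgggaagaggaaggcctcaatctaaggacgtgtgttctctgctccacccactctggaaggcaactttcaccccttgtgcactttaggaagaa

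General markers of excitatory neurons were read in both clusters. The cells of both were chosen by that class label, so these levels describe them and are no separate check of the label. Of 10 such genes 1 was higher, Bhlhe22, and none lower, with a median log2 ratio of -0.09. Neurod6, a factor of postmitotic excitatory neurons, had 4437 and 4292 CPM and was read in 99.1% and 100% of cells. Tubb3, the neuronal tubulin, had 1999 and 1403 CPM, and Dcx, the microtubule protein of migrating neurons, 799 and 880. Slc17a6, which loads glutamate into vesicles, had 380 and 726.98 CPM, a log2 ratio of -0.93, just short of a call and negative on both days. Of 8 interneuron genes, 7 endothelial and pericyte genes, 1 microglial gene and 5 erythroid genes in the table, none reached 5 CPM in either cluster, and 6 of the 8 interneuron genes had no read in cluster 5. Radial glia markers summed to 221.8 and 441.8 CPM in cluster 5 on days 3 and 4 and to 377.7 and 244.9 in cluster 2. Of 7 measured, 1 was called higher, Slc1a3, through day 4 alone (24.3 against 0.127 CPM), and on day 3 it had 0.283 and 0.138 CPM.

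Intermediate progenitors stand between radial glia and neurons. Of 7 of their genes measured 4 were lower in cluster 5 and none higher, against 13.2% of all genes, with a median log2 ratio of -1.11. Eomes, the defining factor of these progenitors, had 3.40 and 11.5 CPM in cluster 5 on days 3 and 4 and 69.1 and 142.9 CPM in cluster 2, a log2 ratio of -3.76. It was read in 13.04% of cluster 5 and 47.7% of cluster 2 neurons and was lower on 4 of 4 plates. The proneural factor Neurog2, the Notch modulator Mfng and the antiproliferative gene Btg2 were the other 3, with log2 ratios of -1.11, -1.28 and -1.05. Ccnd2, a G1 cyclin, had 97.1 and 400 CPM in cluster 5 and 1175 and 1180 in cluster 2, a log2 ratio of -2.57 with lower values on 4 plates. Of 18 cell cycle genes measured, Ccnd2, Mcm2, Ccnb1 and Ccna2 were lower (22.2%) and Cdk1 was higher (5.56%), against 13.2% and 8.73% of all genes. Their median log2 ratio was -1.01 on day 3 and 0.22 on day 4. Ccnb1 had 7.16 and 23.1 CPM, with reads in 7.83% and 8.39% of cells, and was higher in cluster 5 on 2 of 4 plates. The calls of Ccna2 (4.79 and 12.1 CPM) and Cdk1 (24.8 and 6.72 CPM) rest on few reads, and each turned sign under an alternative.

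Genes of axon growth were mostly higher where they were called at all. Among 47 measured genes of the axonal cytoskeleton and growth cone, 11 were higher in cluster 5 and 1 lower, against 8.73% and 13.2% of all genes, and their median log2 ratio was 0.38. Gap43, a membrane protein of the growth cone, had 390 and 200.95 CPM in cluster 5 on days 3 and 4 and 53.4 and 76.5 CPM in cluster 2, a log2 ratio of 2.11. Ina, a neurofilament subunit, had 91.1 and 16.6 CPM against 6.27 and 0.51, a log2 ratio of 3.60, although only 14.8% of cluster 5 neurons had a read. The neurons of cluster 5 were above those of cluster 2 on 4 of 4 plates for both genes. Tiam2, a Rac exchange factor, had 610 and 314.7 CPM against 132.8 and 107.9 and was read in 75.7% and 29.7% of cells. The spectrin Sptbn1 (95.01 and 20.6 CPM) and the ankyrin Ank2 (80.1 and 35.2 CPM), which couple membrane proteins to the cytoskeleton, were also higher on 4 plates.

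The marker Stmn2, Map1a, Stmn4, Nefm, Tuba4a and Tubb2a complete the higher genes of that list, and Map1a and Stmn4 were higher on only 2 of 4 plates. The lower gene was Dpysl4, a collapsin response mediator, at 19.5 and 74.8 CPM. The most abundant members were near to, but under, the threshold: Tuba1a had 9860 and 6487 CPM (log2 ratio 0.61) and Map1b 8168 and 5083 CPM (0.68), and each was above cluster 2 on 4 plates. Dpysl2 was close to level, at 4897 and 4369 CPM. The list as a whole summed to 47833 CPM in cluster 5 and 36325 in cluster 2.

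**Figure D3:**
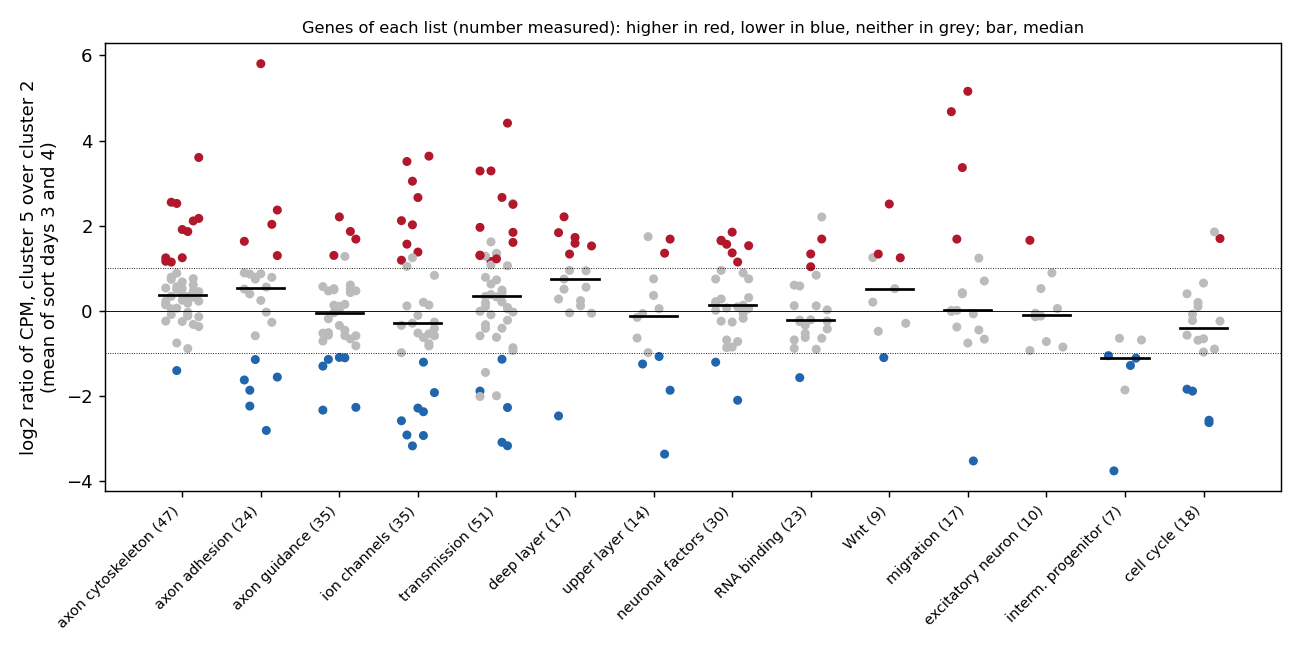
Log2 ratio of summed CPM, cluster 5 over cluster 2 (mean of days 3 and 4), for each measured gene of 14 lists, with the number measured in brackets and a bar at the list's median. Dotted lines mark the threshold of 1. The axon cytoskeleton and deep layer lists have 11 and 6 genes in red (higher), and intermediate progenitor genes lie mostly in blue (lower).

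Adhesion and guidance genes were called in both directions. Of 24 axonal adhesion genes 5 (20.8%, the marker Cntn2 among them) were higher and 6 (25%) lower, against 8.73% and 13.2% of all genes. Their median log2 ratio was 0.53 (0.54 on day 3 and 0.31 on day 4), against -0.08 for all genes, and 5 of those lower genes were under 10 CPM in both clusters. The higher gene Ntm was too (7.63 and 0.034 CPM), with reads in 3.48% of cluster 5 neurons. With the stricter filter the marker Cntn2 was the only higher gene left, and no lower gene was. Chl1, an L1 family adhesion protein, had 40.996 and 10.4 CPM with reads in 22.6% and 2.58% of cells. The cadherin Cdh13 was read in 12.2% and 0.645% of cells. Of 35 guidance genes 4 (11.4%) were higher and 6 (17.1%) lower, shares near those of all genes, with a median of -0.05. The ephrin receptor Epha5 stood at 776 and 315.8 CPM (log2 ratio 1.30) and the netrin receptor Unc5d was read in 56.5% and 25.8% of cells (1.69), and Ephb2 and Efna3 were the other 2. The 6 lower genes were Sema5a, Sema3c, Sema3a, Sema6a, Sema6c and Plxnc1. All are semaphorins or a plexin, a class of guidance ligands and their receptors that fills much of the list. Sema5a had 24.7 and 111.2 CPM and Sema3c 157.5 and 340 CPM, with lower values on 4 of 4 plates. The other calls were weaker where looked at: Sema6a was nearly level on day 3 (log2 ratio -0.05). Sema6c had 1.53 and 5.97 CPM, with reads in 6.96% and 5.81% of cells. Plxnc1 had reads in 3 cluster 2 neurons and in no cluster 5 neuron, which allows a share of up to 2.61%. Other members of the list did not follow: Plxna2 had 1054 and 1017 CPM.

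Among genes of excitability, ion channels were sparsely read. Of 35 measured, 9 (25.7%) were higher and 8 (22.9%) lower, against 8.73% and 13.2% of all genes. Their median log2 ratio was -0.29 (0.28 on day 3 and -0.50 on day 4). Of the 35, 4 met the stricter filter of 20 CPM and reads in 25% of cells, and none of these 4 was called. Cacna1b, the N-type calcium channel of presynaptic terminals, had reads in 8 cluster 5 neurons and in no cluster 2 neuron, which allows a share of up to 1.94%. Kcnf1 and Kcna1 had reads in 4 and 2 cluster 5 neurons and in none of cluster 2. Kcnq3, a subunit of the M-current channel, had 24.7 and 10.3 CPM and was higher on 4 plates. All 8 lower genes were potassium channels, a class that fills much of the list. The higher genes Kcnf1, Kcna1, Kcnd3 and Kcnq3 belong to the same class. Kcnj3 (0.939 and 18.6 CPM) and Kcnh1 (0.61 and 10.4 CPM) were lower on 4 plates. They had reads in 6.09% and 3.87%, and 0.87% and 2.58%, of cells. After thinning, the Kcnj3 shares were 2% and 4.58%.

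Of 51 transmission genes measured 12 (23.5%) were higher and 5 (9.80%) lower, against 8.73% and 13.2% of all genes, and their median log2 ratio was 0.34 (0.64 on day 3 and 0 on day 4). Cnr1, the cannabinoid receptor found on growing axons and terminals, had 525.02 and 421.8 CPM in cluster 5 on days 3 and 4 and 148.5 and 114.4 CPM in cluster 2, with a log2 ratio of 1.84 and reads in 44.3% and 12.9% of cells. After thinning it was read in 43%, 13.7% and, among radial glia, 2.17% of cells. Snap25, a component of the release machinery, had 220 and 88.9 CPM, and Syn1, a synaptic vesicle protein, had 70.2 and 26.1 CPM. Cluster 5 was above cluster 2 for these 3 genes on all 4 plates. Nlgn1, a postsynaptic adhesion molecule, was lower, at 9.48 and 88.3 CPM, and Gria2, an AMPA receptor subunit, was not called at 388.7 and 294.2 CPM.

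**Figure D4:**
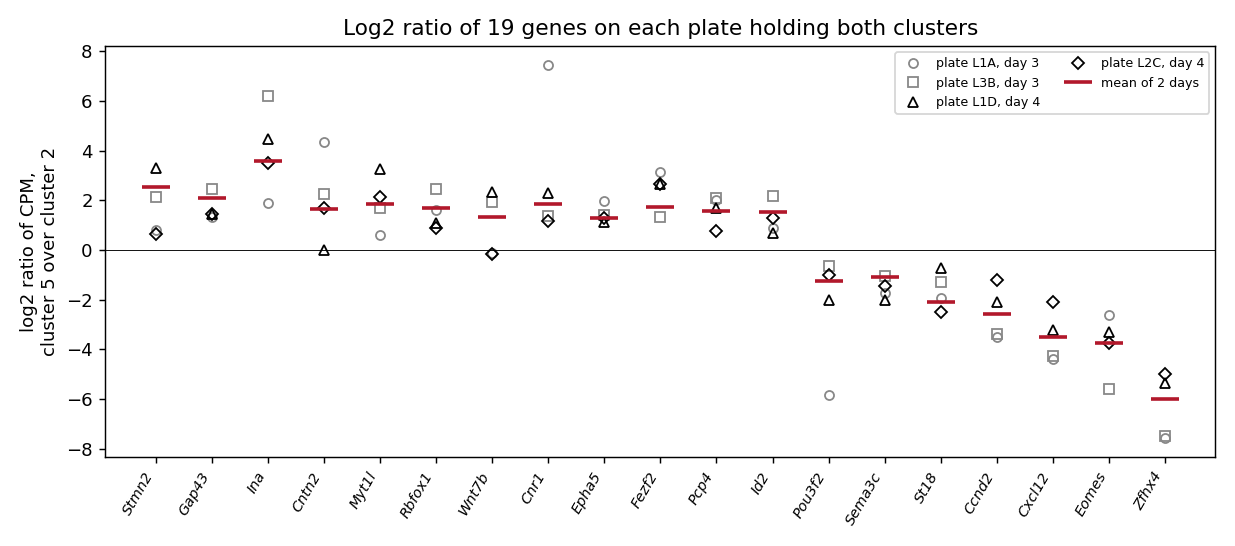
Log2 ratio of summed CPM, cluster 5 over cluster 2, of 19 genes on each of the 4 plates that held both clusters (grey, day 3; black, day 4), with the mean of the 2 days as a red bar. Fezf2 and Cnr1 lie above 0 on all 4 plates, and Wnt7b falls below 0 on plates L1A and L2C.

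Genes of deep and of upper layers were read in the cluster. Of 17 deep layer genes 6 were higher (8.73% of all genes) and 1 lower (13.2% of all genes), with a median log2 ratio of 0.75. Of 14 upper layer genes 2 (14.3%) were higher and 4 (28.6%) lower, with a median of -0.11. Fezf2 had 94.5 and 116.8 CPM in cluster 5 on days 3 and 4 and 33.4 and 28.9 CPM in cluster 2, a log2 ratio of 1.72, and was higher on 4 plates. Pcp4, a calmodulin regulator of deep layer neurons (211.6 and 85.2 CPM), and Id2, an inhibitor of bHLH factors (690 and 253.3 CPM), were also higher on 4 plates. Crim1, Tle4 and the marker Wnt7b were the others, and Ldb2 (0.053 and 5.90 CPM) was lower. Crim1 had 7.39 and 0.404 CPM, with reads in 4.35% of cluster 5 neurons, and Tle4 was higher on 2 of 4 plates. With the stricter filter, 4 higher genes were left: Fezf2, Pcp4, Id2 and Wnt7b.

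Tbr1, Bcl11b and Sox5, factors often used to define the deep layers, had smaller ratios. Tbr1 had 116.5 and 76.1 CPM in cluster 5 on days 3 and 4 and 101.95 and 94.04 CPM in cluster 2, so the levels overlapped. Bcl11b had 311.8 and 251.1 CPM (log2 ratio 0.28) and Sox5 360.7 and 244.9 CPM (0.56). Pou3f2, an upper layer and progenitor factor, had 100 and 86.5 CPM against 273.1 and 181.8 CPM, a log2 ratio of -1.25, and was lower on 4 plates. Rorb and Mdga1 were lower on 4 plates too, at 11.4 against 25.3 and 0.071 against 13.1 CPM, while Cux2 was level at 120.9 and 127.05 CPM.

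Factors of different layers were read in the same neurons. After thinning to 50000 counts, Bcl11b was read in 76% of cluster 5 neurons, Sox5 in 77%, Cux2 in 63%, Tbr1 in 48%, Fezf2 in 45% and Pou3f2 in 24%. In cluster 2 the shares were 64.9%, 55.7%, 64.9%, 42.7%, 13.7% and 46.6%. Among radial glia Bcl11b was read in 7.87% and Fezf2 in 29.9% of cells. The exact 95% interval of the Fezf2 share was 35.03 to 55.3% in cluster 5 and 8.35 to 20.8% in cluster 2. Sox5 also had a larger share in cluster 5 and Pou3f2 a smaller one. The shares of Tbr1, Bcl11b and Cux2 lay closer together. Such intervals cover counting error only, over cells pooled across days and plates. The clusters were made from these same cells, so the intervals give no test between them. Bcl11b and Fezf2 were read together in 33% of cluster 5 neurons (23.9 to 43.1%), against 34.2% for the product of their shares, and in 7.63% of cluster 2 neurons against a product of 8.92%. Tbr1 and Fezf2 shared 17% of cluster 5 neurons against a product of 21.6%. All 15 pairs in cluster 5 had the product of shares inside the interval of the joint share. Without thinning, Bcl11b and Fezf2 were read together in 35.7%.

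**Figure D5:**
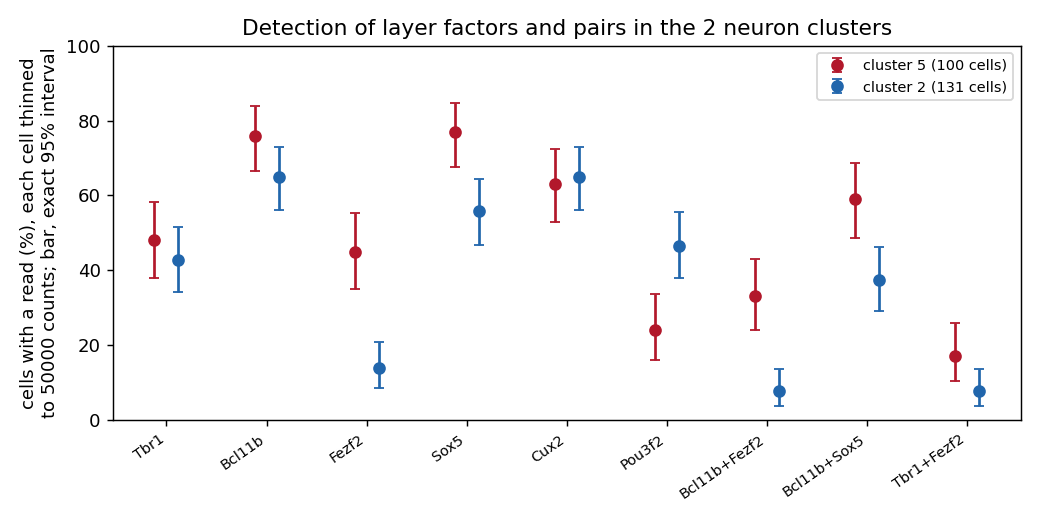
Share of neurons (%) with a read of each layer factor or pair of factors in cluster 5 (red) and cluster 2 (blue), each cell thinned to 50000 counts, with exact 95% binomial intervals. Fezf2 and Sox5 have larger shares in cluster 5 and Pou3f2 a smaller one, and the shares of Tbr1 and Cux2 lie closer together.

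Subplate neurons and Cajal-Retzius cells are early-born neurons of the same tissue. None of 5 measured subplate genes was called, and their sum was 913 CPM in cluster 5 and 891 in cluster 2. Most of each sum came from Serpini1, which was close to level (log2 ratio -0.04), while the list's median log2 ratio was 0.35. Nxph4 had 47.4 and 28.8 CPM, a log2 ratio of 0.74, with reads in 45.2% and 27.1% of cells. Its ratio was under the threshold but positive on both days and on 4 of 4 plates. Nr4a2 had a negative ratio (-0.95), with opposite signs on the 2 days. Reln, the secreted protein that defines Cajal-Retzius cells, had reads in 13 cluster 5 neurons and 2 cluster 2 neurons. Only 7 of the 13 had over 10 Reln reads, and 12 of the 13 had Neurod6 reads as well. The other cell, the single cluster 5 neuron with no Neurod6 read, was a Hes5_GFP cell rich in Ebf1 and Reln. Without the 13 cells, 823 genes were higher and 1389 lower, against 875 and 1326 with them, and 78.9% of the higher and 84.5% of the lower calls were kept.

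Transcription factors, RNA-binding proteins and Wnt genes completed the lists. Of 30 neuronal transcription factors 7 (23.3%, with the marker Myt1l and Bhlhe22 among them) were higher and 2 (6.67%) lower, against 8.73% and 13.2% of all genes. Ebf1 was also among the 7, at 88.05 and 42.5 CPM, but was higher on only 2 of 4 plates. It was read in 8.70% of cluster 5 and 14.2% of cluster 2 neurons, and Bhlhe22 in 8.70% and 4.52%. Zeb2, a repressor known for the timing of cortical cell fates, had 443.04 and 129.3 CPM with reads in 69.6% and 27.1% of cells, and Nfix 87.4 and 38.3 CPM. St18, a relative of Myt1l, went the other way, with 85.4 and 72.2 CPM in cluster 5 on days 3 and 4 and 403.9 and 287.1 CPM in cluster 2, and was lower on 4 plates. Of 23 RNA-binding genes 3 (13%) were higher, the marker Rbfox1 with Celf4 and Khdrbs2, and 1 (4.35%) was lower, Nova2, with a median log2 ratio of -0.22. Of 9 Wnt genes 3 were higher and 1 lower. The higher genes were Wnt7b, itself a marker given for the cluster, the nuclear effector Lef1 (37.7 and 7.44 CPM), and the feedback inhibitor Nkd1 (144.5 and 60.1 CPM), and the lower gene was the receptor Fzd3 (78.99 and 147.8 CPM). Of 17 migration genes 4 (23.5%) were higher and 1 (5.88%) lower, with a median log2 ratio of 0.01. The higher genes included Dab1 (52.4 and 0.491 CPM) and Vldlr (21.9 and 1.33 CPM), which relay the Reelin signal, each with reads in at most 13.04% of cluster 5 neurons. The lower gene was Dpp6, with no read in cluster 5 and 12.7 CPM from 1.94% of cells in cluster 2.

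Outside the lists, the strictly filtered genes with the largest ratios included Pdzrn3, a ubiquitin ligase, at 113.4 and 6.34 CPM with reads in 33.9% and 0.645% of cells. Dixdc1 (146.2 and 19.3 CPM), Ppfia2, a liprin of the presynaptic active zone (180.7 and 41.1 CPM), and Nuak1, a kinase of axon branching (39.8 and 7.22 CPM), were higher on 4 plates, as were Hecw1 and Fat3. Of the lower genes, Zfhx4, a homeodomain zinc finger factor, had no read in cluster 5 on day 3 and 1.75 CPM on day 4, against 141.9 and 76.7 CPM in cluster 2. Cxcl12, the chemokine that intermediate progenitors release, had 19.3 and 104.1 CPM against 455.5 and 581.8 CPM and was read in 17.4% and 70.3% of cells. Cdk6, a G1 kinase, had 22.2 and 211.3 CPM, and Kif26b, an unconventional kinesin, 6.16 and 82.4 CPM. All 10 lower genes chosen by rank were lower on 4 of 4 plates, against 32.4% of all lower genes. They were picked for large ratios and many cells with reads, mostly from these same plates, so this is no separate support.

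The genes whose level over the 8 author clusters ran most like a marker's were named by Pearson's r of log2(CPM + 1), as a description over 8 points that share the same libraries. For Cntn2 these were Nmnat2 (0.997), Ndst3, St8sia3, Myt1l and Runx1t1, and for Myt1l they were Runx1t1 (0.998), Nap1l2, St8sia3, Lpin1 and Pde4a. Rbfox1 and Stmn2 ran most like each other (0.988). Rbfox1 was followed by Dnajc6, Runx1t1, Pcp4 and St8sia3, and Stmn2 by Pfn2, Kit, Actl6b and Nuak1. Chrnb2, a nicotinic receptor subunit, came first for Wnt7b (0.988). Likeness over the clusters did not always go with a call between clusters 5 and 2. St8sia3, Lpin1 and Chrnb2 were not called and had opposite signs on days 3 and 4 (Chrnb2 2.22 and -0.10). Pfn2 was close to level, with a log2 ratio of 0.18.

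The share of excitatory neurons in cluster 5 was larger among CAG_mRFP than Hes5_GFP cells on days 3 and 4, a difference that 2 days cannot bring past a threshold of 0.05. Of CAG_mRFP excitatory neurons 37.5% were in cluster 5 on day 3 (36 of 96 neurons, exact 95% interval 27.8 to 47.97%) and 43.3% on day 4 (55 neurons, 34.5 to 52.4%). Of Hes5_GFP excitatory neurons 22.7% were in it on day 3 (5 of 22, 7.82 to 45.4%) and 9.52% on day 4 (2 of 21, 1.17 to 30.4%). The difference averaged 24.3 percentage points over the 2 days, and an exact two-sided sign-flip test gave p = 0.5, the smallest that 2 days allow. On days 3 and 4 the reporter groups lay on separate plates, so plate and reporter cannot be told apart there. Within cluster 5, only day 3 held at least 5 cells of each reporter group, so the groups were not compared by a test. All 5 Hes5_GFP cells of that day had Stmn2 reads and 4 had Cntn2 reads, against 50% of the 36 CAG_mRFP cells for each gene. These shares were not thinned, and depth differed. Of the CAG_mRFP cells 21 lay on plate L1A (median 38253 counts) and 15 on L3B (277023). The Hes5_GFP cells lay on L1B (4 cells, 143348) and L2A (1 cell, 592010). The part of depth was not tested.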

How the data were processed

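Single cortical cells were sorted and sequenced by a modified Smart-seq2 protocol, per the labels' protocols. HISAT2, Seurat version 2 and the mm10 build are named in the submitters' processing notes. Neither source names an annotation or a counter. The authors deposited estimated counts of 16839 genes, of which 2.80% of nonzero entries were not whole (tolerance 0.01), and these were rounded. A second deposited table holds the natural log of 1 plus counts per 10000. The cell table holds the mitochondrial share as a fraction, with the clusters, classes, cycle phases and sort dates that the authors gave. Each well held a single cell, so no doublet caller was run.

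Cells were taken from the author cluster and class. Counts were summed per cluster and sort day (numbered 1 to 4 by date, leaving out 3 cells of another date), scaled to CPM, and compared as log2 ratios with 1 CPM added. Sort days are taken as replicates because no animals are named, and the spread between them may be technical. No p-value was computed across genes. The share of neurons by reporter group was tested by an exact sign-flip test over days. For detection shares each cell was thinned to 50000 counts without replacement. Named genes were the 5 markers, up to 5 called genes in each direction and the 3 most abundant of each list, the 15 highest and 10 lowest strictly filtered genes, and the 5 genes most like each marker over clusters. Genes named beyond these (such as Tiam2, Ank2, Snap25, Syn1, Slc17a6, Kcnq3, Bcl11b, Sox5, Tbr1 and Cux2) were chosen after their values were seen. The members and gene lists were chosen with earlier results of these data known. Results on some genes are not reported here. The comparison was tested on simulated data. Python 3.11.15, pandas 2.3.3, scipy 1.17.1 and, for TMM factors as an alternative, edgeR were used.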

Additional observations from a re-analysis of the deposited data

Results flagged for a closer look

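For 3 of the 24 sets of 4 plates looked at, a single plate lay apart from the other 3 by Dixon's criterion, the gap to the nearest plate over the whole range. Chance sets apart about 1 in 20 such sets. The median log2 ratio of the subplate list was -0.34 on plate L3B against 0.30 to 0.44 on the other 3 plates. The median of the migration list was -0.59 on plate L1A, the shallowest, against 0.38 to 0.49. The median of the ion channel list was -0.41 on plate L1D and 0 on the other 3, where many of the genes had no read in either cluster.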

How the results depend on the processing

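The shares of measured genes called, 8.73% higher and 13.2% lower, stayed within 1.5 times of these values with a prior of 5 CPM, per-cell means, deeper cells, CAG_mRFP cells, G1 cells, days with at least 10 cells, TMM factors, no filter, without plate L1A and without cells with a Reln read. With the plate as the unit they were 3.46% and 5.64%. Leaving out a sort day gave 14.8 to 17.3% higher (1456 to 1728 genes) and 18.7 to 22.7% lower (1842 to 2264 genes), since a single day needs no second day of the same sign. The authors' normalized values, a mean of logs that compresses ratios of sparse genes, gave 0.14% (14 genes) and 0.080% (8 genes). Chosen after seeing the data, the stricter filter gave 3.82% and 4.53%, and adding day 2, with 4 cluster 2 neurons, gave 10.5% (1034 genes) higher and 6.30% (620 genes) lower, so that 62.5% of calls were higher against 39.8%. The reporter difference was 14.8 to 33.8 points without either day. Joint detection of Bcl11b and Fezf2 was 38.2% at 100000 counts and 35.7% unthinned. Of 1610 values of called named genes under 14 alternatives, 9 turned sign. These were Reln (-0.03) and Cdk1 (-0.56) without cells with a Reln read, Ntm with CAG_mRFP cells (-0.024) and by plate (-0.0039), Ccna2 by plate (0.35), and, with day 2 added, Sema6a (0.0028), Gabbr1 (0.26), Cdk1 (-0.86) and Nap1l2 (-0.91). The cause was not tested. Over the alternatives the list medians ran from 0.18 to 0.57 for the axon cytoskeleton, 0.23 to 0.97 for deep layers and -1.85 to -0.35 for intermediate progenitors, while those of ion channels (-0.50 to 0.83), upper layers (-0.27 to 0.25), axon guidance (-0.36 to 0.56), the cell cycle (-1.01 to 0.22), radial glia (-0.50 to 0.82), excitatory neurons (-0.20 to 0.14), the subplate (-0.05 to 0.64) and immediate early genes (-1.56 to 0.97) took either sign. At this depth 4 of 35 ion channels had 20 CPM and reads in 25% of cells. Ratios were formed within sort days, and within plates as an alternative. By replicate number, no paired analysis was possible because the numbers were given in accession order and pair no cells.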
